A study of Mus musculus with 6 samples.

Results

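The mitochondrially encoded genes are described here in newborn mouse cortical neurons, in which the microRNA miR-17-5p was or was not sequestered by a sponge. They were taken as every row of the deposited count table whose symbol begins with mt-, and 36 of its 35510 genes did so. The 36 are 13 protein genes, 2 rRNAs and 21 tRNAs. The lysine tRNA mt-Tk, which the GENCODE M21 annotation of the GRCm38 build also lists on mitochondrial DNA (mtDNA), was not analysed here.

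Wild-type mice of the outbred Swiss stock RjOrl:SWISS were electroporated in utero at E15.5 (embryonic day), and cortical neurons were collected at P0, the day of birth. The miR-17-5p sponge group (miR-17-5P-Sponge plasmid) had 3 libraries and the control plasmid group had 3. A sponge is a transcript with binding sites that titrate a microRNA away from its targets. Each library came from 50 ng of total RNA of about 100000 cells pooled from about 10 brains, and the column names mark the cells as FACS material, while the sources used here do not state the sorting gate, promoter or reporter. Because brains were pooled and nothing says how the pools were made, p-values measure only the spread between these libraries, which may be technical.

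Mammalian mtDNA is a small circle transcribed from both strands into long precursors, in which tRNAs sit like punctuation between the rRNAs and messenger RNAs. Cutting at the tRNAs frees the rRNAs of the mitochondrial ribosome and the messenger RNAs for subunits of respiratory complexes I, III, IV and V. All other subunits of these complexes, all of complex II and the proteins that transcribe, process and translate mtDNA are nuclear. Developing neurons rely on this machinery for the ATP that neurite growth and synapse formation consume. Most mitochondrial messenger RNAs carry a short poly(A) tail, while mt-Nd6 is known to lack a regular one.

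No mitochondrial gene was called different between sponge and control neurons: 0 of the 33 that could be tested passed an adjusted p of 0.05 (limma, Benjamini-Hochberg over all genes), and 0 passed an unadjusted p of 0.05. The background was equally empty in this fit, with 0 of 22479 tested genes called (0.00%) and 650 (2.89%) at an unadjusted p under 0.05. The authors' deposited comparison of the same libraries lists 10812 genes, and its smallest adjusted p is 0.0001. The lack of any called gene thus holds for the limma fit of all 6 libraries. Without control library 1 the same method called 2 of 22404 genes (0.00893%). Why the deposited comparison differs was not tested. The mitochondrial genes made up 0.948, 0.813 and 0.895% of the normalised counts in sponge libraries 1 to 3, against 0.726, 0.789 and 0.995% in control libraries 1 to 3. The groups overlapped, and their means were 0.885 ± 0.0679% in sponge and 0.837 ± 0.141% in control neurons (SD, n = 3 each), where the mean without control 1 was 0.892%. In bulk libraries, fewer cells of a type, fewer mitochondria per cell and less RNA per mitochondrion cannot be told apart.

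Depth was even, at 115445910 to 138254412 counts per library, so that 1 read was worth 0.883 to 1.05 normalised counts. The sample labels call the cells cortical neurons, and 12 of 12 neuronal markers were above 0 in every library, with summed levels of 631165 to 643755 normalised counts in sponge and 578520 to 664200 in control libraries. The 578520 belongs to control 1, below the other 5 libraries. All listed markers of radial glia and progenitors, astrocytes, oligodendrocyte lineage, microglia and interneurons were also above 0 in every library. Detection alone thus does not tell these cell types apart. Astrocyte markers summed to 222139 to 316536 in sponge and 195120 to 248495 in control libraries. Interneuron markers summed to 43237 to 81301 in sponge and 56252 to 79699 in control libraries. Control library 1 stood apart from the other 5. Its 8 erythroid markers summed to 32264, against 1444 to 4259 in the other libraries, and its 10 microglial markers to 4462, against 1803 to 2478. Its radial glia and progenitor markers, at 571775, were also the highest, against 407208 to 543745. The 8 markers of the oligodendrocyte lineage summed to 115694 to 129076 in sponge and 88876 to 108949 in control libraries, without overlap. How often such sums are apart between the groups was not counted, and this difference was not tested. Fold changes are therefore given with and without control 1, and the part of these markers in the results was not tested.

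Part of the mtDNA is present almost unchanged in the nuclear genome, and its sequence is shown first because reads from it can be placed in either genome. GENCODE M21 annotates 7 unprocessed pseudogenes on the minus strand of chromosome 1 (chr1:24611535-24616188) that run in the same order as the end of mt-Co1 through most of mt-Nd4, mtDNA positions 6390 to 11042. Over 4140 aligned bases the pseudogenes and the mitochondrial genes differed at 2 positions, with 0 gaps inside the genes. A window of 60 bases of mt-Co2, the gene of complex IV subunit 2, shows the problem. Capitals mark the 6 bases at which a second, more diverged copy on chromosome 2 differs, while the copy on chromosome 1 differs at 0.
mt-Co2 (chrM:7457-7516, plus strand): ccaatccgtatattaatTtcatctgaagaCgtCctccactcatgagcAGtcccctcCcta
Gm28661 (chr1:24615062-24615121, minus strand): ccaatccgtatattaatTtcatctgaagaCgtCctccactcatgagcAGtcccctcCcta
Gm13341 (chr2:22587471-22587530, minus strand): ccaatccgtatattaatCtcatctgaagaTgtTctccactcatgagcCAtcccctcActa

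A read from within such a window cannot be placed on mtDNA rather than chromosome 1 by its sequence. The rule by which the authors counted reads with several placements is not stated in the sources used here. The share of 100-base windows that are identical to an annotated nuclear transcript was 99.5% in mt-Co2, 99.5% in mt-Atp6, 99.9% in mt-Co3, 97.6% in mt-Nd3 and 98.5% in mt-Nd4l. It was 60.8% in mt-Nd4, 30.8% in mt-Co1 and 3.19% in mt-Nd2, and 0 in mt-Nd1, mt-Nd5, mt-Nd6, mt-Cytb and both rRNAs. mt-Atp8 has no annotated copy of its own on chromosome 1, but it lies inside the same collinear stretch.

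Levels followed this boundary. The 6 protein genes inside the chromosome 1 stretch had means of 10.5 to 93.3 normalised counts, whereas the 5 protein genes outside it had 28766 to 195113. The 4 tRNA genes inside it (mt-Ts1, mt-Td, mt-Tg, mt-Tr) had means of 0.656 to 29.1, and the 17 tRNA genes outside had 15.2 to 2793. mt-Co1 and mt-Nd4, which straddle the ends of the stretch, had means of 363353 and 79136. Among tRNA genes the ranges overlapped, with mt-Ts1 inside at 29.1 and mt-Tf outside at 15.2. For mt-Co2, mt-Atp6, mt-Co3, mt-Nd3 and mt-Nd4l, which share nearly all their sequence with an annotated nuclear copy, the values are uncertain as levels of the mitochondrial transcripts. mt-Atp8 and the 4 tRNA genes inside lie in the stretch by position only, and copies of theirs outside annotated transcripts were not searched for.

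**Figure D1:**
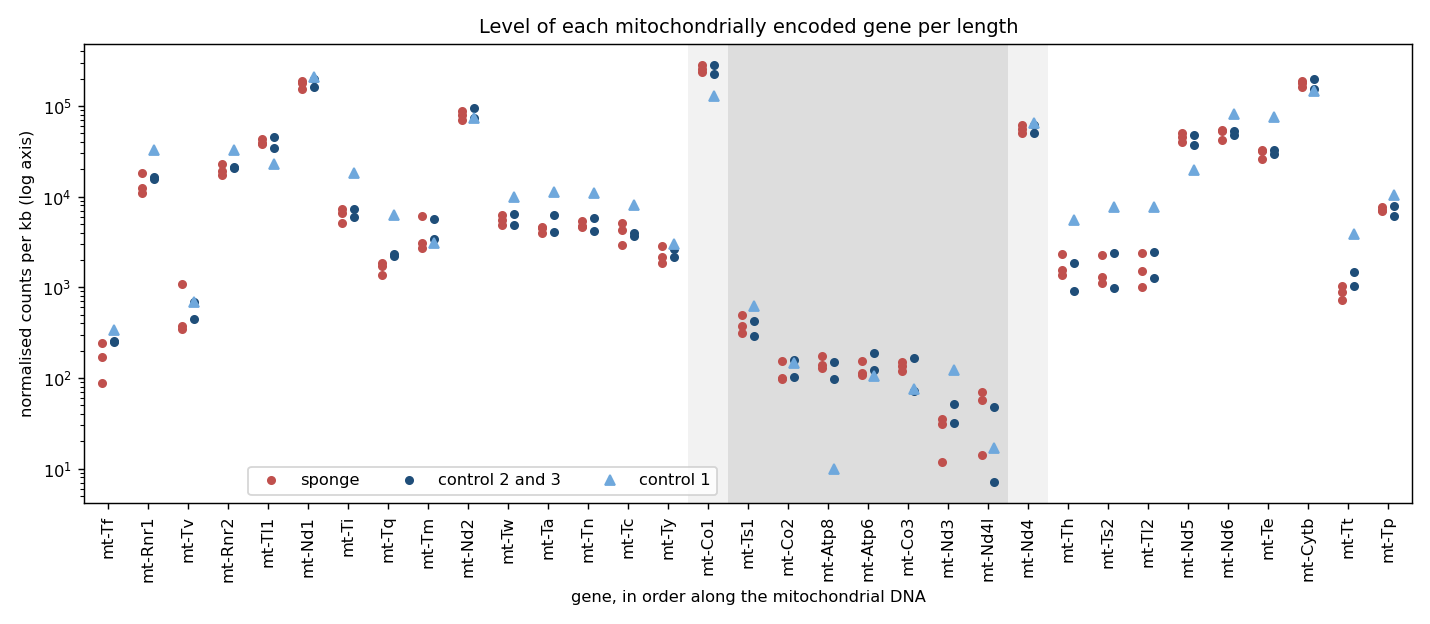
Level of each of the 33 tested mitochondrial genes in normalised counts per kb of gene (log axis), in order along mtDNA, with 1 point per library, sponge left of control and control 1 as a triangle. Dark shading marks genes inside the stretch copied on chromosome 1 and light shading mt-Co1 and mt-Nd4, which lie partly in it; the shaded protein genes in the dark area average 10.5 to 93.3 normalised counts.

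The nuclear copies carried counts of the same low order. By the criterion of 100 aligned bases at 90% identity, 17 nuclear genes matched a mitochondrial gene, 17 of them were in the table and 10 had a mean of at least 10. mt-Co2 had 69.0, 66.7 and 105.1 normalised counts in sponge libraries 1 to 3 and 101.0, 70.5 and 109.2 in control libraries 1 to 3. Its identical copy Gm28661 had 51.3, 69.8 and 82.2 in sponge and 83.0, 62.0 and 74.8 in control libraries. The gene was thus above its copy in 5 of 6 libraries. mt-Atp6, which encodes a membrane subunit of ATP synthase, averaged 90.1 beside 120.5 for its copy Gm10925, and mt-Co3, complex IV subunit 3, averaged 93.3 beside 133.6 for Gm28437. mt-Atp6 lay below its copy in 6 of 6 libraries and mt-Co3 in 5 of 6. The small complex I subunit gene mt-Nd4l averaged 10.5 beside 41.7 for Gm10222.

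Among genes wholly inside the stretch, mt-Nd3, another complex I subunit gene, lay farthest below its copy, and that copy, Gm28438, had the highest mean of all 17 copies. mt-Nd3 had 10.8, 4.2 and 12.4 normalised counts in sponge libraries 1 to 3, against 43.0, 17.9 and 11.1 in control libraries 1 to 3. Gm28438 had 338.1, 237.6 and 244.7 in sponge, against 1169.3, 462.7 and 358.0 in control libraries. The copy exceeded the mitochondrial gene in all 6 libraries. The pair differs at a single base over 345 aligned bases, T3C, counted from 1 at the first base of mt-Nd3 and with the mitochondrial base first, which is mtDNA position 9461. The first 23 bases are shown with that base in capitals.
mt-Nd3 (chrM:9459-9481, plus strand): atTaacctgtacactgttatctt
Gm28438 (chr1:24613097-24613119, minus strand): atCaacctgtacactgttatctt

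The sequence used here is that of the GRCm38 reference, which is of the C57BL/6J strain, while the libraries came from Swiss mice. Which base the mtDNA of these mice carries was not analysed here. Gm28438 was lower in sponge than in control libraries with no overlap between the groups, a pattern seen in 5.04% of all tested genes. The difference was −1.10 ± 0.43 on the log2 scale (SE, unadjusted p = 0.0356, adjusted p = 0.925, limma). Without control 1 the difference was −0.59 (unadjusted p = 0.0308, adjusted p = 0.653), so it did not pass the adjusted threshold in either fit. Of the other copies with the highest means, Gm13340, Gm28437, Gm10925 and Gm29216 had log2 fold changes of 0.23, −0.25, −0.02 and −0.26, or 0.15, −0.20, −0.09 and −0.06 without control 1, none of which passed.

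**Figure D2:**
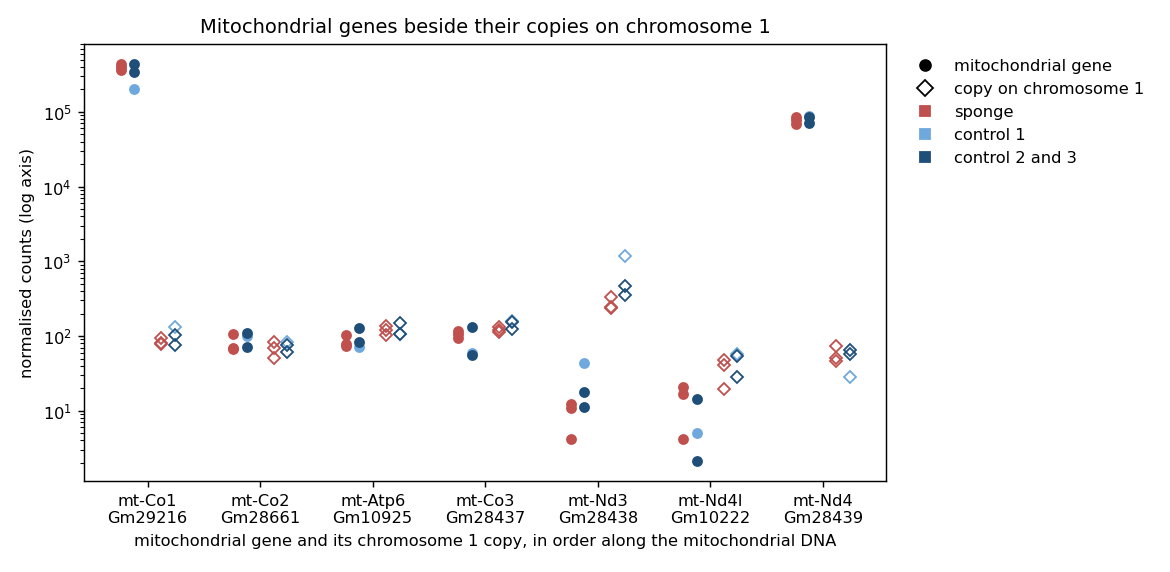
Normalised counts (log axis) of the 7 mitochondrial genes with an annotated copy in the chromosome 1 stretch (filled circles) and of that copy (open diamonds), 1 point per library, sponge left of control. mt-Co1 and mt-Nd4 stand far above their copies, mt-Co2, mt-Atp6 and mt-Co3 lie within the same order of magnitude as theirs, and Gm28438 stands above mt-Nd3 in every library.

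Outside the stretch, and in mt-Co1 and mt-Nd4 at its ends, levels per kb of gene spanned a wide range, in an order that control 1 departed from. The catalytic complex IV subunit gene mt-Co1 led at 235180 normalised counts per kb (mean of 6 libraries), before the complex I subunit gene mt-Nd1 at 181298 and mt-Cytb, the only mitochondrially encoded subunit of complex III, at 170553. The complex I genes mt-Nd2, mt-Nd4, mt-Nd6 and mt-Nd5 followed at 79683, 57428, 55426 and 40199. The rRNA genes mt-Rnr2 (16S) and mt-Rnr1 (12S) had 22332 and 17740 per kb. The mean of the whole gene was also divided by only the bases that are not copied on chromosome 1. This gave 342140 per kb for mt-Co1 (1062 bases) and 157641 for mt-Nd4 (502 bases). Such values would be levels only if no read from the copied part was counted, which is not known. Per kb of whole gene, 5 of 6 libraries kept mt-Co1 over mt-Nd1, mt-Nd4 over mt-Nd6 and mt-Nd5 over mt-Rnr2. The full 6 of 6 kept mt-Cytb over mt-Nd2, mt-Nd2 over mt-Nd4, mt-Nd6 over mt-Nd5 and mt-Rnr2 over mt-Rnr1. mt-Nd1 was above mt-Cytb per kb in 3 of 6, which were the 3 control libraries, and below it in the 3 sponge libraries. The ratio of their normalised counts, mt-Nd1 over mt-Cytb, was 0.826, 0.806 and 0.833 in sponge libraries 1 to 3 and 1.21, 0.875 and 0.845 in control libraries 1 to 3. Per kb the genes were close in sponge 3, with 177556 for mt-Nd1 and 178267 for mt-Cytb. In control 3 the values were 198649 and 196748. How often a ratio of genes separates groups of this size was not counted, and the difference was not tested. In control 1, mt-Nd1 and mt-Cytb lay above mt-Co1, with 209262, 144773 and 130093 per kb, mt-Nd6 lay above mt-Nd2 and mt-Nd4, and mt-Nd5 lay below both rRNAs.

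Inside the stretch, mt-Atp6, mt-Co2, mt-Co3 and mt-Atp8 lay between 116 and 132 normalised counts per kb, with no order that held across libraries, and mt-Nd3 and mt-Nd4l lay at 47.6 and 35.3 per kb. mt-Atp8 and mt-Atp6 also share 43 bases of the same strand, so reads there match both genes. Whether such reads were counted for both, either or neither is not stated in the sources used here. These shared bases are in capitals.
mt-Atp8 and mt-Atp6 (chrM:7915-7981, plus strand): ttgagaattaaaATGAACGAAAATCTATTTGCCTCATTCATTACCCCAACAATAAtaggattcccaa

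mt-Co1 had 438740, 363475 and 396281 normalised counts in sponge libraries 1 to 3, against 200994, 345511 and 435117 in control libraries 1 to 3. The log2 fold change was 0.35 ± 0.27 (SE; adjusted p = 0.925), and 0.04 without control 1. Only control 1 lay far from the rest, below all the other libraries. mt-Nd5, a large membrane subunit of complex I, had 92068, 73116 and 83266 normalised counts in sponge and 35486, 68499 and 87505 in control libraries. Its log2 fold change was 0.47 ± 0.31, or 0.09 without control 1. mt-Cytb had 216248, 184153 and 203938 in sponge and 165620, 175637 and 225080 in control libraries, a log2 fold change of 0.10 with a 95% interval of −0.26 to 0.47, or 0.02 without control 1.

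The remaining complex I genes outside the stretch leaned the other way or lay flat. mt-Nd1, whose product helps form the quinone site, had 178600, 148488 and 169921 normalised counts in sponge libraries 1 to 3 and 200264, 153631 and 190107 in control libraries 1 to 3. Its log2 fold change was −0.13 ± 0.15, and those of mt-Nd2 and mt-Nd4, both proton-pumping subunits, were −0.01 ± 0.16 and −0.08 ± 0.15. Without control 1 the values were −0.05 for mt-Nd1, −0.07 for mt-Nd2 and −0.01 for mt-Nd4. mt-Nd6, the single protein gene read from the other strand, had 27876, 22094 and 27688 in sponge and 42286, 24890 and 27764 in control libraries. Control 1 was again the library that stood off, here above the others. The log2 fold change of mt-Nd6 was −0.26 ± 0.21, and −0.03 without control 1. For these 7 genes outside or partly in the stretch, 3 lay higher and 4 lower in sponge neurons, the median log2 fold change was −0.01 with and without control 1, and the median half-width of the 95% interval was 0.37, or 0.26 without control 1.

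The 6 protein genes inside the stretch had far wider intervals, with a median half-width of 1.34. mt-Atp8, the small ATP synthase subunit, had 28.6, 26.0 and 35.3 normalised counts in sponge libraries 1 to 3, against 2.00, 19.98 and 30.3 in control libraries 1 to 3. Its log2 fold change of 1.29 ± 0.90 rested on the value of control 1 and was 0.26 without it. mt-Nd4l had 20.7, 4.2 and 16.8 in sponge and 5.0, 2.1 and 14.2 in control libraries, a log2 fold change of 0.94 ± 0.95, or 0.88 without control 1, with overlapping groups. mt-Nd3 had −1.21 ± 0.75, or −0.69 without control 1, mt-Co3 had 0.46, or 0.29, mt-Co2 had −0.23, or −0.16, and mt-Atp6 had −0.12, or −0.30. None of the 6 passed (smallest adjusted p = 0.925, limma).

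The rRNAs both lay lower in sponge neurons, below the threshold of the test. mt-Rnr1 had 17527, 10586 and 11838 normalised counts in sponge libraries 1 to 3, against 31213, 15690 and 14794 in control libraries 1 to 3. Sponge 1 lay among the controls, so the groups overlapped. The log2 fold change was −0.57 ± 0.31 (95% interval −1.30 to 0.15, unadjusted p = 0.105, adjusted p = 0.925), and −0.23 without control 1. mt-Rnr2 had 35864, 27542 and 30663 in sponge and 52039, 32677 and 33191 in control libraries, with a log2 fold change of −0.30 ± 0.21, or −0.08 without control 1. The authors' deposited table lists 11 mitochondrial genes, those with higher means, and gives mt-Rnr1 a log2 fold change of −0.627 with a p-value of 0.0434 and an adjusted p of 0.9954. The authors' deposited table gives an adjusted p of 0.9954 or 0.9998 for each of the 11.

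tRNA genes are 59 to 75 bases long, and counts over them cannot be split here between a mature tRNA and an unprocessed precursor. The 2 tRNAs with the highest means are shown for how tightly they are packed, each with the tRNA in lower case and the protein gene that follows directly in capitals (first 30 bases).
mt-Tl1 and mt-Nd1 (chrM:2676-2780, plus strand): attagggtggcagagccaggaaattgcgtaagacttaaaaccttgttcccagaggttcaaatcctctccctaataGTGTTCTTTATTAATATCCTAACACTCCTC
mt-Te precedes mt-Nd6 on the minus strand in the same way, with 0 bases between them.
mt-Te and mt-Nd6 (chrM:14041-14139, minus strand): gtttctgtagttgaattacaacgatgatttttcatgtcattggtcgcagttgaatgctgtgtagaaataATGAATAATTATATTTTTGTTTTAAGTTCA

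Of the 21 tRNA genes, 18 had a mean of at least 10 and were tested, while mt-Td, mt-Tg and mt-Tr had means of 0.656, 1.13 and 5.51. mt-Tl1, a leucine tRNA, and mt-Te, the glutamate tRNA, had the highest means, 2793 and 2622 normalised counts, and the others tested had 15.2 to 581, with mt-Ti (isoleucine) and mt-Tp (proline) next at 581 and 515. mt-Te had 2184, 1810 and 2229 in sponge libraries 1 to 3 and 5253, 2021 and 2237 in control libraries 1 to 3. mt-Tl1 had 3226, 2856 and 2939 in sponge and 1708, 2595 and 3436 in control libraries. Control 1 was thus the highest library for mt-Te and the lowest for mt-Tl1. Their log2 fold changes were −0.48 ± 0.34 and 0.28 ± 0.24, and −0.04 and 0.01 without control 1.

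Among the 18 tested tRNA genes, 1 lay higher and 17 lower in sponge neurons, with a median log2 fold change of −0.34. Without control 1 the split was 6 higher and 12 lower and the median −0.06, so most of the lean toward lower tRNA counts in sponge neurons was absent without that library. The groups did not overlap for 2 of the 33 tested mitochondrial genes, mt-Tf and mt-Tq, both lower in sponge neurons, while 5.04% of all tested genes had the same pattern. mt-Tq, the glutamine tRNA on the minus strand, had 132.1, 95.9 and 121.9 in sponge libraries 1 to 3, against 444.1, 156.7 and 163.8 in control libraries 1 to 3. It had the smallest p of the mitochondrial genes, with a log2 fold change of −0.96 ± 0.43 (unadjusted p = 0.0604, adjusted p = 0.925), or −0.47 without control 1. mt-Tf, the phenylalanine tRNA, had 5.91, 16.7 and 11.5 in sponge and 23.0, 16.8 and 17.2 in control libraries. Its log2 fold change was −0.78 ± 0.63, or −0.65 without control 1. For mt-Tf the margin between the groups, 16.7 against 16.8, was less than 1 read. The threonine tRNA mt-Tt had a log2 fold change of −1.03 ± 0.51, or −0.48 without control 1.

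**Figure D3:**
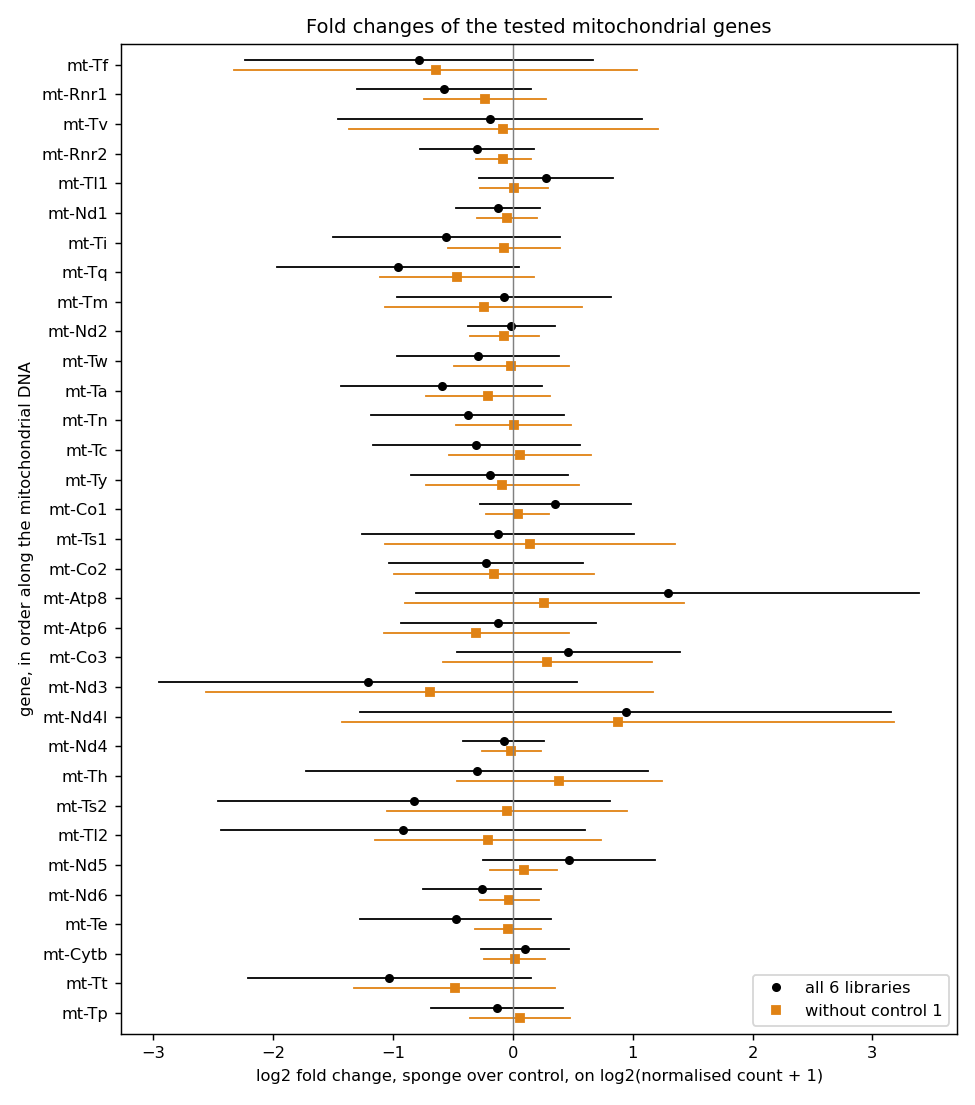
Log2 fold change of sponge over control with its 95% interval for the 33 tested mitochondrial genes, in order along mtDNA, from all 6 libraries (black circles) and without control 1 (orange squares). All 33 intervals from 6 libraries include 0, and 28 of the 33 estimates lie closer to 0 without control 1.

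Over all 33 tested mitochondrial genes, 7 lay higher and 26 lower in sponge neurons, with a median log2 fold change of −0.23, beside 0.01 over all 22479 genes. Without control 1 the counts were 12 and 21 and the median was −0.05, beside 0.01 over 22404 genes, of which 2 were called (0.00893%), neither of them mitochondrial. The median size of the fold change, sign aside, was 0.31 on the log2 scale with all libraries and 0.09 without control 1. The half-width of the 95% interval had a median of 0.82 over the 33 genes, against 0.56 over all tested genes.

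The make-up of the mitochondrial counts set control 1 apart from the other 5 libraries, among which shares of single genes differed by less. mt-Co1 took 36.8, 37.2 and 36.3% of all mitochondrial counts in sponge libraries 1 to 3 and 22.2, 35.6 and 36.1% in control libraries 1 to 3. mt-Cytb took 18.1 to 18.8% in the 5 libraries and 18.3% in control 1, so that its part was as large there. mt-Nd1 took 22.1% in control 1, against 14.98 to 15.8% in the others, and mt-Nd5 took 3.91%, against 7.06 to 7.72%. Smaller differences ran between the groups. mt-Co1 and mt-Nd5 took larger shares in each sponge than in each control library, with mt-Nd5 at 7.72, 7.48 and 7.62% in sponge libraries 1 to 3 and 3.91, 7.06 and 7.25% in control libraries 1 to 3. mt-Nd1 took a smaller share in each sponge library, with 14.98, 15.2 and 15.6% in sponge and 22.1, 15.8 and 15.8% in control libraries, and so did mt-Nd2, with 7.71, 7.34 and 7.59% in sponge and 8.43, 7.81 and 8.07% in control libraries. The groups were thus apart for these 4 genes. Leaving out a library cannot make such groups overlap, so doing so for control 1 adds no check. The nearest values lay close, with mt-Nd2 at 7.71% in sponge 1 and 7.81% in control 2. For mt-Nd1 they were 15.55% in sponge 3 and 15.76% in control 3. The groups overlapped for the shares of mt-Nd4, mt-Nd6, mt-Cytb, mt-Rnr1, mt-Rnr2, mt-Tl1 and mt-Te. How often groups of this size are apart by share over all genes was not counted. Shares sum to a whole, so they do not vary independently, and these differences were not tested. The ratio of mt-Co1 to mt-Nd1 was 2.46, 2.45 and 2.33 in sponge and 1.00, 2.25 and 2.29 in control libraries. The ratio of mt-Nd6 to mt-Nd5, overlapping neighbours on opposite strands, was 0.303, 0.302 and 0.333 in sponge libraries 1 to 3 and 1.19, 0.363 and 0.317 in control libraries 1 to 3. The ratio of mt-Te to mt-Nd6, direct neighbours on the minus strand, lay between 0.0783 and 0.0819 in 5 libraries and at 0.124 in control 1. The rRNAs made up 9.18% of the mitochondrial counts in control 1 and 3.89 to 4.99% in the other libraries, and tRNAs 1.57% and 0.746 to 0.794%. Genes on the minus strand made up 5.62% in control 1 and 2.61 to 2.93% in the others.

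**Figure D4:**
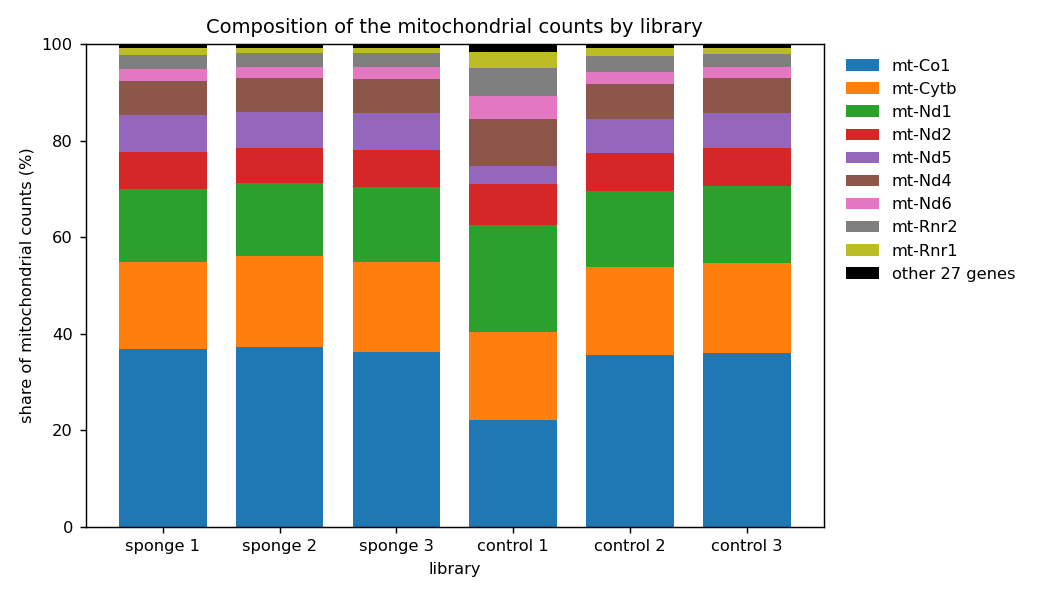
Share of each of the 9 most abundant mitochondrial genes in all mitochondrial counts (%) in each library, sponge left of control, with the other 27 genes in black. In 5 libraries mt-Co1 is at 35.6 to 37.2%, while in control 1 mt-Co1 is at 22.2% and mt-Nd1 at 22.1%.

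Gene by gene, control 1 was the highest of the 6 libraries for 15 of the 18 tested tRNA genes, namely 8 of 8 on the minus strand and 7 of 10 on the plus strand. In those 15 it stood at 1.28 to 4.81 times the mean of the other 5 libraries. The highest were mt-Ts2 (4.81) and mt-Tl2 (4.52), in the tRNA cluster between mt-Nd4 and mt-Nd5. In the same cluster mt-Th was at 3.43, below mt-Tt at 3.76, which lies elsewhere. The summed counts of that cluster (mt-Th, mt-Ts2, mt-Tl2) were 457.3, 287.6 and 228.8 in sponge libraries 1 to 3, against 1377.4, 439.6 and 209.3 in control libraries 1 to 3. The second large cluster, mt-Tw, mt-Ta, mt-Tn, mt-Tc and mt-Ty, which holds the tRNAs beside the light-strand origin of replication, summed to 1643.0, 1362.8 and 1327.8 in sponge and 2948.8, 1283.0 and 1712.0 in control libraries. Control 1 held 2.22 times the mean of the other libraries for mt-Rnr1 and 1.63 times for mt-Rnr2. It held 0.439 times that mean for mt-Nd5, the longest gene, and 0.508 times for mt-Co1. Leaving control 1 out brought the spread of the 9 leading protein and rRNA genes per library to a coefficient of variation of 9.7 to 20.2%, against 10.5 to 43.9% with it. Not all 9 fell, and mt-Nd2 went from 12.17 to 12.77%. Because control 1 was picked out from these same values, a smaller spread without it is no separate evidence.

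**Figure D5:**
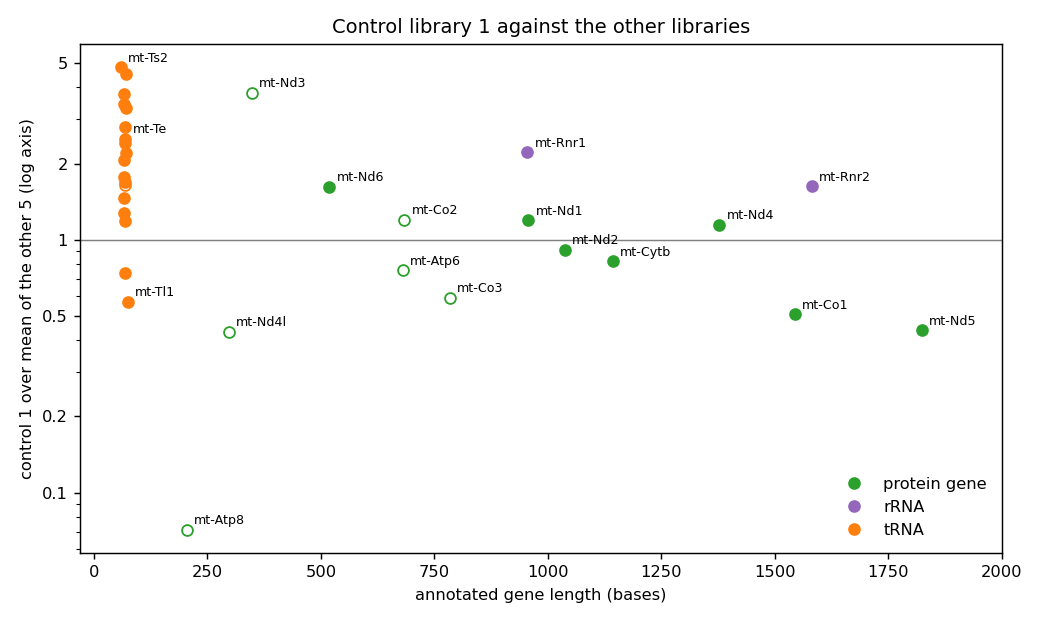
Level in control 1 over the mean of the other 5 libraries (log axis) against annotated gene length in bases, for the 33 tested genes by class, with open symbols for genes inside the stretch copied on chromosome 1. The tRNAs (orange) lie mostly above 1, up to 4.81 for mt-Ts2, and the longest protein genes mt-Co1 and mt-Nd5 lie at 0.508 and 0.439.

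The sponge binds miR-17-5p, whose seed (bases 2 to 8) is in capitals in the mature sequence from RefSeq (GRCm38.p6).
mmu-miR-17-5p: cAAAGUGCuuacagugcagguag
The 7-base complement of this seed, GCACTTT, was searched on the sense strand of the mitochondrial genes as annotated and occurred once, in mt-Co1 from base 136 of the gene. The match is in capitals.
mt-Co1 (chrM:5452-5480, plus strand): gtcaaccaggtGCACTTTtaggagatgac
Within the first 500 bases, 1 of the 12 mitochondrial genes of that length held the match, and 2.37% of 29334 other annotated genes did. The match is only a description of these letters, and binding of miR-17-5p to it was not tested. The levels of mt-Co1 were given above, with a log2 fold change of 0.35, or 0.04 without control 1.

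The nuclear partners of the mitochondrial genes were also uncalled. Of 76 nuclear genes for subunits of complexes I to V, 0 passed the test, 1 lay higher and 75 lower in sponge neurons, and the median log2 fold change was −0.19. Without control 1 the direction turned, with 72 higher and 4 lower, a median of 0.14 and again 0 called. In that fit 15 of the 76 had an unadjusted p under 0.05 (limma), all higher, against 7.54% of all genes. With all 6 libraries 0 of the 76 did, and the list was not tested as a set. The sum of the 76 genes was 0.611, 0.603 and 0.588% of all counts in sponge libraries 1 to 3, against 0.994, 0.569 and 0.524% in control libraries 1 to 3. The 13 mitochondrial protein genes gave 0.898, 0.775 and 0.853% in sponge and 0.648, 0.744 and 0.948% in control libraries. By these sums, control 1 was the highest library for the nuclear subunits and the lowest for the mitochondrial ones. Gene by gene, control 1 was the lowest library for 5 of the 13 mitochondrial protein genes, the highest for 4 and between for 4.

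By complex, medians with all libraries were −0.20 for 36 complex I genes, −0.12 for 4 of complex II, −0.16 for 9 of complex III, −0.24 for 11 of complex IV and −0.18 for 16 of complex V, and without control 1 they were 0.14, 0.11, 0.18, 0.18 and 0.14. In complex V, Atp5l, which encodes ATP synthase subunit g, had the smallest p of the nuclear subunits. It had 1325, 1572 and 1210 normalised counts in sponge libraries 1 to 3 and 2774, 1462 and 1927 in control libraries 1 to 3, a log2 fold change of −0.54 ± 0.24 (adjusted p = 0.925), or −0.30 without control 1. Ndufab1, the mitochondrial acyl carrier protein, had −0.29 and −0.11. Sdhb, the iron-sulphur subunit of complex II, had −0.17 and 0.10, Uqcrb of complex III −0.27 and 0.11, and Cox6c of complex IV −0.30 and 0.08.

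Genes that act on mtDNA or its RNA were nearer to 0. For 23 genes of mtDNA transcription and replication, 6 lay higher and 17 lower, with a median of −0.13, or −0.07 without control 1. Mterf1a, one of the mouse genes for the mitochondrial transcription termination factor, had 206, 271.9 and 257.1 normalised counts in sponge libraries 1 to 3, against 366.1, 337.6 and 353.9 in control libraries 1 to 3. It had the smallest p of this list, and its groups did not overlap, as for 5.04% of all tested genes with sponge lower. The log2 fold change was −0.53 ± 0.22 with all libraries (unadjusted p = 0.0411, adjusted p = 0.925, limma). Without control 1 the value was −0.50 (adjusted p = 0.659, limma). Ppargc1a, the co-activator of mitochondrial biogenesis, had 3061, 2320 and 2171 in sponge and 1360, 2093 and 2205 in control libraries, a log2 fold change of 0.43 ± 0.23, or 0.21 without control 1. Ssbp1, which coats single-stranded mtDNA, had −0.20 and −0.15.

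For 26 genes of mitochondrial RNA processing and stability, 7 lay higher and 19 lower, with a median of −0.05, or −0.00642 without control 1. Prorp, the nuclease that cuts tRNA 5′ ends, had a log2 fold change of 0.17 ± 0.15, the tRNA methyltransferase gene Trmt5 had 0.18 and the tRNA isopentenyltransferase gene Trit1 had −0.19, or 0.20, 0.21 and −0.06 without control 1. For 24 genes of mitochondrial translation, 4 lay higher and 20 lower, with a median of −0.09, and without control 1 the split was 20 higher and 4 lower, with a median of 0.07. In this list, the release factor gene Mtrf1 had 0.30 ± 0.19, or 0.37 without control 1, Taco1, a translational activator of mt-Co1, had 0.17 in both fits, and the ribosomal protein gene Mrpl51 had −0.20, or 0.000217 without control 1. None of the genes in these lists passed the adjusted threshold in either fit.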

How the data were processed

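The deposited values are a signal: gene counts that the authors divided by 1 size factor per library, as DESeq2 normalisation is named in the table's title. STAR 2.7.6a, DESeq2 1.30.1 and the builds mm10 and GRCm38 are named in the submitters' processing notes. The sources used here do not state the annotation, the counter, its strand setting or how reads with several placements were treated. Each column held whole multiples of 1 step (largest gap 3.26e-09), whose sum describes the depth. The authors' deposited comparison gives log2 fold changes and p-values for 10812 genes, and its mean counts matched the count table to within 5.000e-05.

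The fit across all genes took log2(value + 1) of the 22479 genes (of 35510) whose mean was 10 or more into limma's trend method, version 3.58.1 under R 4.3.3, with robust empirical Bayes, a two-sided test, Benjamini-Hochberg adjustment over those genes and a threshold of 0.05. It was first tested on simulated data. Fold changes on this scale understate changes of low genes. No count model was run. Of the gene identifiers, 35389 were found in GENCODE M21. Nuclear copies were sought with BLAST 2.17.0 in its transcripts. A window was identical where all of its 100 bases occur in a nuclear transcript; the genome itself was not searched.

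Every mt- gene, the 5 copies of highest mean and up to 3 genes of smallest p per list are named. Members and lists were chosen with earlier results of these data known. Alternatives were other pseudocounts, filters, scalings, library weights, a replicate block and leaving out each library. Same-numbered libraries of both groups did not deviate together, so the block is given only as an alternative.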

Additional observations from a re-analysis of the deposited data

How the results depend on the processing

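No mitochondrial gene was called by limma in any of the 15 other settings, in which the smallest adjusted p was 0.601. Over all genes the number called higher in sponge was 3 with array quality weights and ranged from 0 to 2 when 1 library was left out (2 without control 1), and the number called lower was 1 with array quality weights; all were 0 otherwise. The count models planned as alternatives, edgeR and DESeq2, were not run: the raw counts were not used here, and 2 control columns, whose steps are close to 1, did not pass a check of low values that such a model needed. The difference in mitochondrial share, sponge minus control, was 0.0481 percentage points and ranged from -0.00717 to 0.1273 when 1 library was left out, the highest without control 3. With the replicate block, 3 of 33 members had an unadjusted p under 0.05 (limma, smallest 0.00815, mt-Rnr1), against 2.34% of all genes. With this block 0 genes were called. Same-numbered libraries had correlations of 0.00957, 0.00544 and -0.0532, so no shared deviation was seen. Whether libraries were collected or prepared in pairs cannot be told from these correlations. Without control 3, 8 of 32 members had an unadjusted p under 0.05, against 5.32% of all genes, and without control 2, 3 of 33, against 3.63%. With array quality weights, which gave control 1 a weight of 0.126, the log2 fold change turned positive for mt-Nd1 (0.01), mt-Nd2 (0.00686), mt-Tw (0.04), mt-Tn (0.08), mt-Ts1 (0.19), mt-Co2 (0.07), mt-Nd4 (0.04), mt-Tp (0.14), Sdhb (0.03), Uqcrb (0.00912), Cox6c (0.04), Trit1 (0.000842), Gm10925 (0.01) and Gm29216 (0.07); the cause was not tested. When 1 library was left out, the log2 fold change crossed 0 for some genes, with ranges of -0.71 to 0.09 for mt-Tv, -0.43 to 0.19 for mt-Tm, -0.10 to 0.10 for mt-Nd2, -0.68 to 0.00674 for mt-Tn, -0.52 to 0.06 for mt-Tc, -0.39 to 0.14 for mt-Ts1, -0.30 to 0.12 for mt-Atp6, -0.89 to 0.39 for mt-Th, -0.33 to 0.06 for mt-Tp, -0.34 to 0.10 for Sdhb, -0.49 to 0.11 for Uqcrb, -0.53 to 0.08 for Cox6c, -0.37 to 0.000217 for Mrpl51 and -0.12 to 0.14 for Gm10925. In all, 34 of 771 values recomputed for 52 named genes changed sign. At this depth and spread, the 95% interval of the log2 fold change reached 0.82 to either side for the median mitochondrial gene.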
